A study of Mus musculus with 28 samples.

Results

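Described here are 8 genes of the cell division machinery whose products act where fetal germ cells either keep dividing or stop: Cdkn1b, Cdkn2b, Ccnd3, Ccne1, Ccne2, Rb1, Cdc45 and Bub1. They were taken by exact gene name from the deposited RNA table and from the deposited table of promoter ChIP-seq values, each of which lists 22138 Ensembl genes. All 8 were found in both, and all 8 were among the 13518 genes that passed the filter for testing, RPKM 1 or more in at least 2 of the 12 fitted libraries. RPKM is reads per kilobase of gene, scaled to library size, so levels may be compared between genes. The number of RNA reads per library is unknown.

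In the mouse fetal testis, germ cells leave the mitotic cycle and wait in a G0/G1 arrest, while germ cells in the fetal ovary enter meiotic prophase. The step from G1 into S phase is driven by D-type cyclins with CDK4 or CDK6 and by E-type cyclins with CDK2, which phosphorylate the retinoblastoma protein and so free E2F factors to switch on replication genes. The inhibitors p27 (from Cdkn1b) and p15 (from Cdkn2b) block those kinases, and they and Rb1 have been tied to the arrest of male germ cells.

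The series holds 28 samples from mouse gonads at E13.5 (embryonic day), of which 16 RNA-seq libraries and 9 ChIP-seq libraries are used. Germ cells were sorted by FACS as positive for the surface antigen SSEA1, and the SSEA1-negative gonadal cells are called soma. The cross carried Setdb1 alleles, Setdb1 being an H3K9 methyltransferase gene. Its genotypes were WT (flox/+), Het1 (delta/+), Het2 (flox/-) and KO (delta/-). Each sex gave 1 WT library and 2 libraries each of Het1, Het2 and KO, and C57BL/6 males without the Setdb1 alleles gave 1 germ cell and 1 soma library. Het1 and Het2, each lacking 1 working copy of Setdb1, were pooled as Het (n = 4 per sex). Every group of the cross carried at least 1 modified Setdb1 allele, WT included. The ChIP-seq Het libraries were flox/- only. The Cre driver that made the delta allele is not given in the sources used here. Nor do the labels say whether replicates were separate embryos or pools, so p-values measure only the spread between libraries, which may be technical.

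Known genes followed the labels. Setdb1 RNA was 27.1 to 34.7 RPKM in the 4 KO libraries and 37.5 to 58.9 in the 8 Het libraries, an RNA level that does not show which exon was deleted. The 5 germ cell markers summed to 834 to 2126 RPKM in the 12 libraries of the fit, lowest in female KO, and to 6.04 in soma. All 5 meiotic entry genes were higher in female Het, and the 3 tested of 4 male fate genes were higher in male Het. Male Het1 replicate 1 had the lowest mean rank correlation with its own sex among male libraries (0.955), and female Het2 replicate 1 among female ones (0.946). Calls that rest on these 2 Het libraries are given with and without them. The next lowest female library, KO replicate 1, had 0.954. Between Het1 and Het2, averaged over the sexes, 2 of 13518 genes passed the limma test and 164 had an unadjusted p under 0.05. No member was among the 2. Opposite differences in males and females would cancel in this average, and Het1 and Het2 were not tested against each other within each sex.

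The promoters of the genes whose RNA or H3K27me3 stood out are shown first, as RefSeq gives them on the assembly GRCm38.p6, from 250 bases before the transcription start to 50 after it, read along the gene's strand. Capitals mark matches on both strands to the GC box, searched as GGGCGG, to the CCAAT box of NF-Y, searched by those letters, or to the CHR element of cell cycle promoters. The CHR element was searched as TTTGAA and in its other common form, which is TTCGAA. No matches of different kinds shared bases in these 3 stretches. Cdkn1b lies at chr6:134920151-134920450 on the plus strand, Ccne1 at chr7:38107441-38107740 on the minus strand and Cdkn2b at chr4:89310983-89311282 on the minus strand.
Cdkn1b: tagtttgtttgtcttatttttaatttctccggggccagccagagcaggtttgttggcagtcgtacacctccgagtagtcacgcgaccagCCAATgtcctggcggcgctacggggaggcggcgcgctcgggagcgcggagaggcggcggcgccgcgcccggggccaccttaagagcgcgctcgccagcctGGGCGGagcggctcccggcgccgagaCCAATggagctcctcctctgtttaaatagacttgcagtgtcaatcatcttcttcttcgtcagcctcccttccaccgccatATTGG
Ccne1: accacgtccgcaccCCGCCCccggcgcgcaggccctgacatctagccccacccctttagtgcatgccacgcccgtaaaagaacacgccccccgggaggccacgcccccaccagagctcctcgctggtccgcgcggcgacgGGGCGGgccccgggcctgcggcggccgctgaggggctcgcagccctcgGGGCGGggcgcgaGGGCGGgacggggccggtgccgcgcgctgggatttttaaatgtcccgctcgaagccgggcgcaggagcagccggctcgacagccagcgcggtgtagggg
Cdkn2b: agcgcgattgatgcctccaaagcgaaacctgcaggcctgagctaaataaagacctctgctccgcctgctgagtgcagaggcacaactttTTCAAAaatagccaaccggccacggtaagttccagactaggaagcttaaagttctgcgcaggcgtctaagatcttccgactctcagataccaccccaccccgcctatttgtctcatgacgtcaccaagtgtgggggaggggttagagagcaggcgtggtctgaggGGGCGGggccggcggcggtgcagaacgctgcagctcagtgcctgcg
The Cdkn1b stretch held 3 CCAAT boxes and 1 GC box, and the Ccne1 stretch held 4 GC boxes and no CCAAT box. The Cdkn2b stretch held 1 GC box and 1 CHR element. RefSeq gave 7 promoters for 6 of the 8 genes, more than 1 for Ccnd3 and none for Ccne2 and Rb1. A gene was counted if any of its promoters held a match, while the shares are per promoter. A GC box was present in all 6, against 35.7% of the 32851 promoters of this length. A CCAAT box was present in 4 (37.4% of promoters), for Ccnd3 in only 1 of its promoters, and a CHR element in 3 (19.2%). An E2F site was searched with the letters TTTCCCGC, with the variant spelled TTTCGCGC, with the variant spelled TTTGCCGC, and with the variant spelled TTTGGCGC. It was in none of the 6 and in 2.26% of promoters. These are letter matches within 300 bases, not tested binding sites.

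In Het germ cells, 2 of the 8 genes differed between the sexes: Cdkn1b, the p27 inhibitor, was lower in females, and Ccne1, cyclin E1, was higher in females. Differences are given on the log2(RPKM + 1) scale, which understates changes at low levels. Across all genes, 31.9% passed the same test (limma, two-sided, Benjamini-Hochberg adjusted p under 0.05), 17.6% higher and 14.3% lower in females, so 2 of 8 is near the background. Over all genes the split of calls was 2373 higher and 1939 lower, and 1955 and 2407 with median centring of the libraries. At an unadjusted p under 0.05, 3 of the 8 passed, against 42.8% of genes, and the 2 sexes did not overlap for 17.3% of genes with females higher and 14% with females lower. The median difference was 0.07 over the 8 genes and 0.05 over all genes tested.

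**Figure D1:**
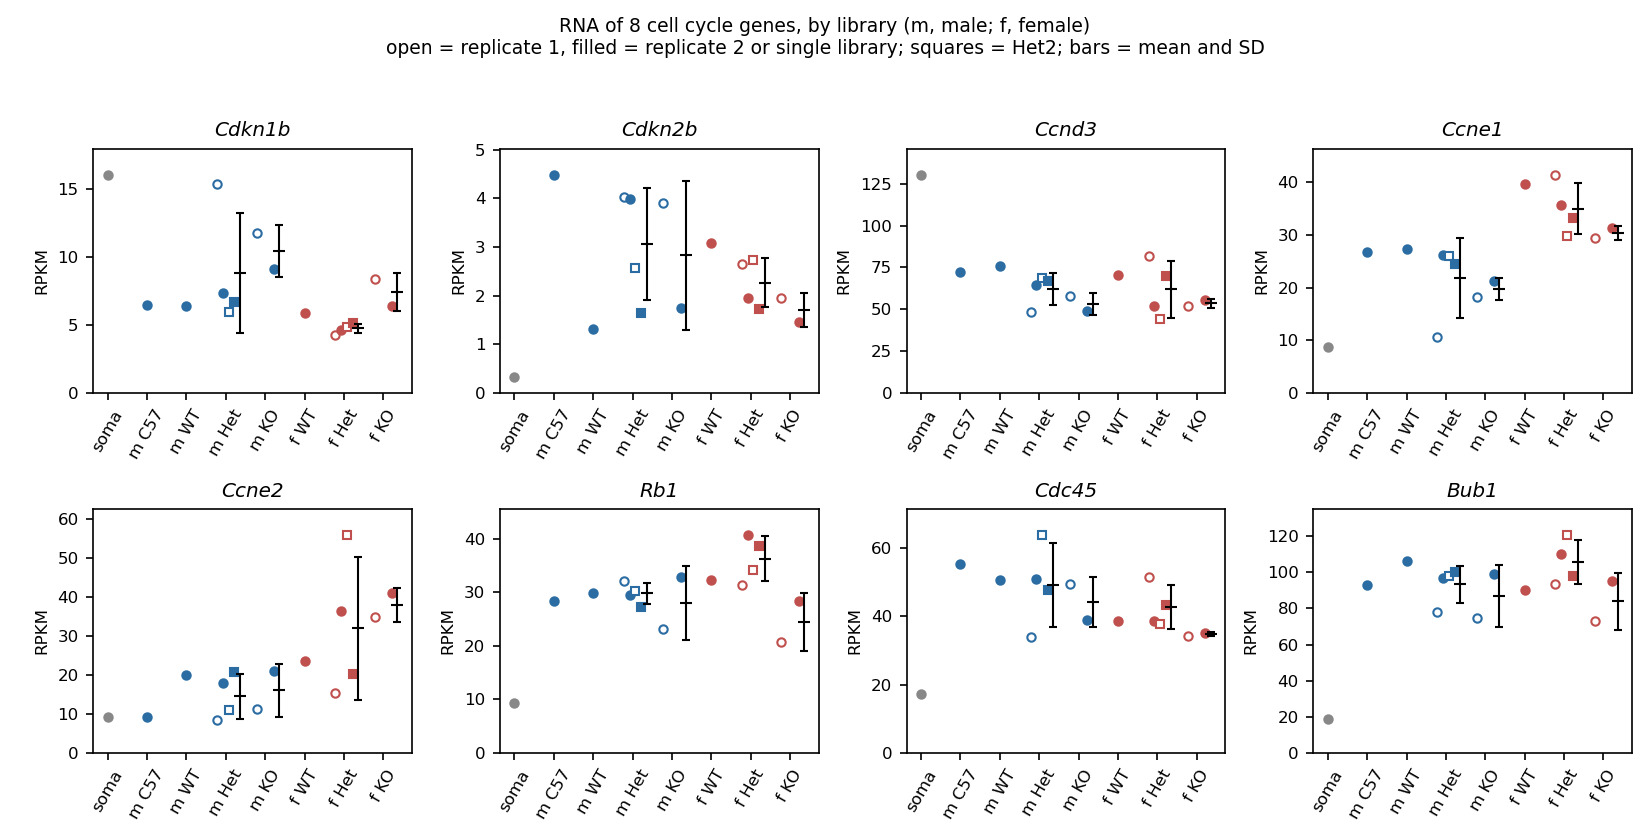
RNA level (RPKM, linear axis from 0) of each of the 8 genes in every library, with male germ cells in blue, female germ cells in red and C57BL/6 male soma in grey; bars give the mean and SD of groups with more than 1 library. Cdkn1b in male Het1 replicate 1 (15.4 RPKM) stands at the level of soma (16.04), and the same library has the lowest Ccne1 of any germ cell library (10.6).

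Cdkn1b stood at 15.4 and 7.34 RPKM in the male Het1 replicates and at 5.93 and 6.70 in the male Het2 replicates. In females it was 4.29 and 4.66 in Het1, and 4.85 and 5.16 in Het2. The lowest male library was above the highest female one. The group means were 8.84 ± 4.41 (SD, n = 4) and 4.74 ± 0.364 (SD, n = 4), and the female minus male log2 difference was -0.69 (SE 0.238, limma adjusted p = 0.0427). Without male Het1 replicate 1 the difference was -0.41, with adjusted p = 0.0696. It was -1.10 with Het1 libraries alone (adjusted p = 0.0754) and -0.28 with Het2 libraries alone (adjusted p = 0.461), and across all alternatives the adjusted p ran from 0.0186 to 0.461 with the same sign.

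The male library with the highest Cdkn1b also had the highest RNA of Nanos2, a gene of male germ cell fate. Nanos2 was 57.6 RPKM in male Het1 replicate 1, 1.59 in Het1 replicate 2, 9.05 and 1.96 in the Het2 replicates, 36.5 and 5.07 in the KO replicates and 0.79 in WT. The 4 listed male fate genes did not move together in male Het1 replicate 1. Lefty2 (79.4 RPKM) and Tdgf1 (8.12) were the lowest of the male germ cell libraries there, and Dnmt3l (1.23) was the highest. The sum of the 4 genes, 146.3 RPKM, was also the lowest. Cdkn1b in the KO replicates was 11.8 and 9.09, and in WT 6.42. Sertoli cell markers moved in part with it: the 5 of 5 listed genes summed to 62.4 RPKM in male Het1 replicate 1 and 59.5 in male KO replicate 1. Male Het2 replicate 2 had a Sertoli sum of 46.8 with a Cdkn1b level of 6.70, and the sum over all male Het libraries ran from 8.92 to 62.4, against 553.5 in soma. In the 4 female Het libraries it ran from 9.42 to 15.1, with Amh at 0 in Het2 replicate 1 and Dhh at 0 in Het1 replicate 2. Of the 5 Sertoli genes, 3 were lower in female Het and none was higher. In bulk libraries, fewer cells of a type and less RNA per cell cannot be told apart, and the part of Sertoli RNA in the Cdkn1b difference was not tested.

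Ccne1 showed the opposite order of the sexes. Cyclin E1, its product, activates CDK2 at the start of S phase. In males it was 10.6 and 26.2 RPKM in the Het1 replicates and 26.1 and 24.4 in the Het2 replicates. In females it was 41.4 and 35.8 in Het1, and 29.8 and 33.2 in Het2. Every female library was above every male one, and male Het1 replicate 1 was far below the other 3 male Het libraries. The means were 21.8 ± 7.53 RPKM in males and 35.02 ± 4.90 in females (SD, n = 4 each), a log2 difference of 0.73 (SE 0.238, limma adjusted p = 0.0337). Without male Het1 replicate 1 it was 0.43 with adjusted p = 0.0277. Leaving out both libraries that stand apart gave 0.50 with adjusted p = 0.00995. Here the call was lost when female Het1 replicate 1, female Het1 replicate 2 or female Het2 replicate 2 was left out (adjusted p = 0.0767, 0.0734 and 0.0544), with no filter (0.0601), with Het1 libraries alone (1.15, adjusted p = 0.0754) and with Het2 libraries alone (0.31, adjusted p = 0.286).

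The ratio of Ccne1 to Cdkn1b RNA, given as a description, was 0.687 in male Het1 replicate 1, 1.55 and 2.33 in the male KO replicates and 3.57 to 4.40 in the other 3 male Het libraries. The male WT library gave 4.26 and the C57BL/6 male germ cells 4.12. Female libraries had ratios of 6.13 to 9.64 in Het, 3.50 and 4.87 in KO and 6.72 in WT. Both female KO libraries were thus below every female Het library, an order that was not tested and whose share over gene pairs was not computed. The ratio is not separate from Cdkn1b alone, for which both female KO libraries lay above every female Het one, as for 14.8% of genes. Neither gene passed for KO minus Het in females (limma adjusted p = 0.859 for Ccne1 and 0.484 for Cdkn1b).

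**Figure D2:**
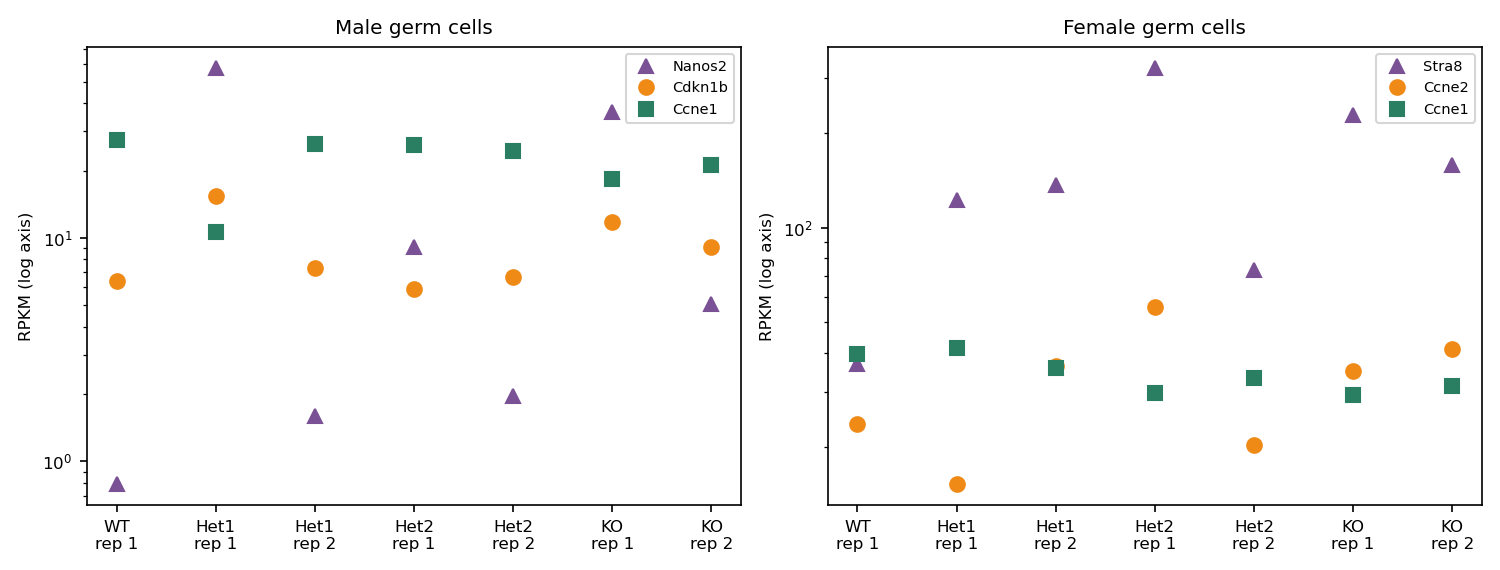
RPKM (log axis) in each library of the cross: Nanos2, Cdkn1b and Ccne1 in males (left), and Stra8, Ccne2 and Ccne1 in females (right). Male Het1 replicate 1 has the highest Nanos2 (57.6) with Cdkn1b (15.4) above Ccne1 (10.6), and female Het2 replicate 1 has the highest Stra8 (322.8) and the highest Ccne2 (55.9).

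Ccne2, which encodes cyclin E2, had the largest SD of log2(RPKM + 1) of the 8 genes in each sex, 0.50 over 7 male and 0.63 over 7 female libraries. Its male levels were 8.51 and 17.9 RPKM in Het1, and 10.96 and 20.8 in Het2. Female levels were 15.2 and 36.3 in Het1, and 55.9 and 20.3 in Het2. The groups overlapped, and the log2 difference of 0.99 (SE 0.372) missed the threshold with a limma adjusted p of 0.0588. That difference passed when male Het2 replicate 2 (adjusted p = 0.0423) or female Het1 replicate 1 (adjusted p = 0.0185) was left out. Without both libraries that stand apart it was 0.46 with adjusted p = 0.32.

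The female library with the highest Ccne2, Het2 replicate 1, also had the highest Stra8, a gene induced at meiotic entry. Stra8 was 322.8 RPKM there, 122.3 and 136.5 in the Het1 replicates, 73.4 in Het2 replicate 2, 228.5 and 158.4 in the KO replicates and 36.7 in WT. Ccne2 in the female KO replicates was 34.8 and 41.0, and in WT 23.6. The same Het2 library held more red blood cell RNA, with the 4 of 4 erythroid markers summing to 257.4 RPKM against 1.78 to 3.77 in the other 3 female Het libraries. The part of either in the Ccne2 level was not tested. Across the 7 female libraries of the cross, Ccne2 ran 3.67-fold from lowest to highest and Ccne1 1.41-fold.

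The other inhibitor, Cdkn2b, was the lowest of the 8 genes in all 4 groups of the fit. Its male Het levels were 4.02 and 3.98 RPKM in Het1, and 2.57 and 1.65 in Het2, and its female Het levels were 1.72 to 2.74. The groups overlapped, and the log2 difference was -0.28 (SE 0.248, limma adjusted p = 0.425).

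Ccnd3, cyclin D3, which pairs with CDK4 and CDK6, was the second most abundant of the 8 in each group. Its means were 62.1 ± 9.37 RPKM in male Het and 61.95 ± 17.1 in female Het (SD, n = 4 each). The log2 difference was -0.03 with a 95% interval of -0.43 to 0.37 (limma adjusted p = 0.915), and its sign was not stable across scalings. Rb1, the retinoblastoma protein gene, was 29.8 ± 2.004 RPKM in male Het and 36.3 ± 4.21 in female Het. The groups overlapped, with a difference of 0.27 (95% interval -0.04 to 0.58, adjusted p = 0.177).

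Cdc45 encodes the helicase subunit that is loaded when replication origins fire. It was 34.1 and 51.1 RPKM in the male Het1 replicates, 63.9 and 47.7 in the male Het2 replicates and 37.7 to 51.6 in the 4 female Het libraries, with a log2 difference of -0.17 (95% interval -0.55 to 0.21, limma adjusted p = 0.484). Bub1, a kinase of the spindle assembly checkpoint, was the most abundant of the 8. It was 78.1 to 100.4 RPKM in male Het and 93.7 to 120.7 in female Het, a log2 difference of 0.18 (95% interval -0.13 to 0.48, adjusted p = 0.372). Bub1 stood at or above 95.5% of tested genes in male Het by mean RPKM, and Cdkn2b at or above 28.6%.

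By mean RPKM the order in male Het was Bub1, Ccnd3, Cdc45, Rb1, Ccne1, Ccne2, Cdkn1b and Cdkn2b. The ranges over libraries overlapped between Ccnd3 and Cdc45, between Ccne1 and Ccne2, and between Ccne2 and Cdkn1b, and the other neighbours in that order were apart. In female Het the order was the same, but the ranges overlapped at each step from Ccnd3 down to Ccne2. Cdkn1b stood at or above 49.4% of tested genes in male Het and 33.3% in female Het, and Ccne2 at or above 61.8% and 81.4%.

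The same sex comparison in KO germ cells rests on 2 libraries per sex. None of the 8 genes passed the limma test there, where 16.1% of all genes did, and 1 of the 8 (Ccne2) had an unadjusted p under 0.05, as did 32.6% of all genes. Cdkn1b was 11.8 and 9.09 RPKM in males against 8.39 and 6.42 in females, a log2 difference of -0.44 (SE 0.337, adjusted p = 0.384). Ccne1 was 18.3 and 21.2 in males against 29.4 and 31.3 in females, a difference of 0.60 (SE 0.336, adjusted p = 0.236). For Ccne2 the values were 11.2 and 20.9 against 34.8 and 41.0, a difference of 1.25 (SE 0.527, adjusted p = 0.122). The sexes did not overlap for these 3 genes nor for Cdc45, a pattern that 37.5% of genes showed with females higher and 26.3% with females lower. With both libraries that stand apart left out of the Het groups, which alters only the shared estimate of spread, Ccne1 (adjusted p = 0.0115) and Ccne2 (adjusted p = 0.0361) passed, and the count over all genes rose from 2181 to 3893. Without male Het1 replicate 1 alone, Ccne1 passed with adjusted p = 0.0294. In WT, with 1 library per sex and no test, the female minus male log2 values were -0.11 for Cdkn1b, 0.52 for Ccne1 and 0.23 for Ccne2. They were 0.82 for Cdkn2b, -0.11 for Ccnd3, 0.10 for Rb1, -0.23 for Bub1 and -0.38 for Cdc45. The WT signs of Cdkn2b, which had the largest value, and of Bub1 were opposite to those in Het.

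**Figure D3:**
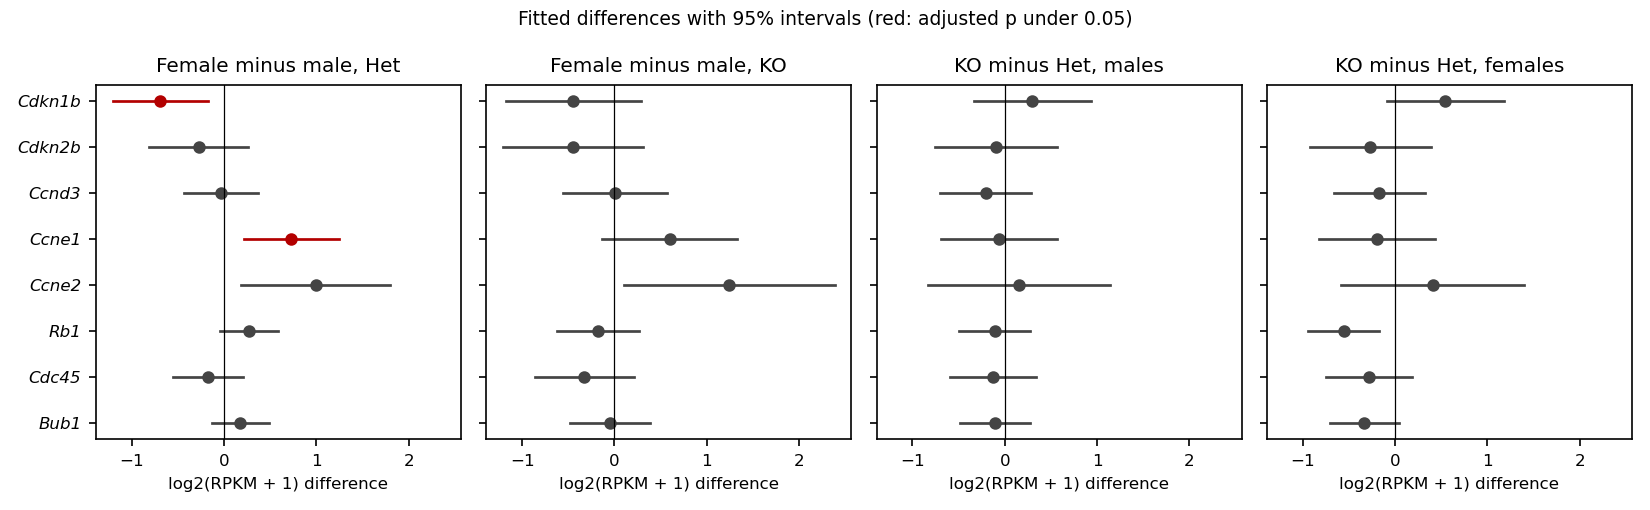
Fitted log2(RPKM + 1) differences of the 8 genes with 95% intervals, for female minus male in Het and in KO and for KO minus Het in each sex; red marks an adjusted p under 0.05. The 2 red points are Cdkn1b (-0.69) and Ccne1 (0.73) in Het, and every interval for KO minus Het crosses 0 except that of Rb1 in females (-0.94 to -0.17).

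None of the 8 genes passed the threshold for KO minus Het in either sex. In males, 0 of 8 passed the limma test and 0 had an unadjusted p under 0.05, against 0.614% and 4.55% of all genes. In females, 0 of 8 passed and 1 had an unadjusted p under 0.05, against 0.407% and 12.4% of all genes. The KO minus Het effects did not differ between the sexes past the threshold for any of the 8, with 0.0518% of genes passing that test and 0 of the 8, against 3.65% of genes, at an unadjusted p under 0.05. The median KO minus Het difference over the 8 genes was -0.10 in males and -0.23 in females, against 0.03 and 0.07 over all genes tested. The largest 95% interval was that of Ccne2, -0.84 to 1.14 in males and -0.58 to 1.39 in females, so a 2-fold rise of this gene lay within the error. The 95% interval of Cdkn1b in females, -0.09 to 1.175, also took in a 2-fold rise on the log2(RPKM + 1) scale.

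Rb1 came closest in females. Its levels were 31.4 and 40.7 RPKM in Het1, 34.3 and 38.7 in Het2 and 20.6 and 28.3 in KO. Both KO libraries were below all 4 Het libraries, a pattern seen in 5.62% of genes. The log2 difference was -0.56 (SE 0.178, unadjusted p = 0.00797, limma adjusted p = 0.219). In males Rb1 was 23.1 and 32.9 in KO against 27.3 to 32.2 in Het, with overlap, and the female minus male difference of the effects was -0.45 (95% interval -0.997 to 0.09, adjusted p = 1). With both libraries that stand apart left out, the female difference was -0.58 (adjusted p = 0.0947), and without female KO replicate 1 it was -0.34 (adjusted p = 1). The difference of the effects was -0.697 when the first male KO library was left out and -0.208 when the other was, and -0.234 without female KO replicate 1.

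Cdkn1b in female KO libraries, at 8.39 and 6.42 RPKM, was above all 4 female Het libraries and above the female WT value of 5.90. The log2 difference was 0.54 (SE 0.292, limma adjusted p = 0.484), and 14.8% of genes had both KO libraries above all Het ones. In males the difference was 0.30 (SE 0.292, adjusted p = 1), with both KO libraries inside the Het range. That range reached the KO values through male Het1 replicate 1 alone; without it the male difference was 0.57 (SE 0.188, adjusted p = 0.441). Cdc45 in female KO, 34.4 and 35.2, was below all 4 Het libraries, with a difference of -0.28 (SE 0.215, adjusted p = 0.665). Marker sums also differed between these groups. The 5 of 5 germ cell markers summed to 833.7 RPKM in female KO replicate 1 and 1168 in replicate 2, below the 1274 to 1662 of the 4 female Het libraries, and KO replicate 1 was also the lower of the pair for Rb1. In males these sums were 1848 and 2082 in KO, within the 1728 to 2126 of Het. The 5 of 5 Leydig markers summed to 3.42 to 5.32 RPKM in male Het and to 26.9 and 56.1 in male KO. They summed to 19.8 in male WT and to 11.7 in C57BL/6 male germ cells. The 5 of 5 stromal markers summed to 11.5 to 24.3 in female Het, to 28.4 and 39.0 in female KO and to 26.65 in female WT. Male stromal sums were 11.93 to 21.71 in Het, 26.62 and 29.51 in KO and 21.74 in WT. Erythroid markers, 4 of 4, summed to 43.1 in female KO replicate 1 and 2.19 in replicate 2, and to 1.78 to 257.4 in female Het. Their part in the values of the 8 genes was not tested.

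Beyond the 8 genes, 80 others of the cell cycle in 7 lists were all tested. In female minus male Het, 25 of the 80 passed (31.2%, 8 higher and 17 lower in females), close to the 31.9% of all genes. Their median difference was -0.09, against 0.05 over all genes. With both libraries that stand apart left out, 26 passed, 4 higher and 22 lower. The lists were chosen with earlier results of these data known, so their directions are descriptions.

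Among the G1 cyclins and kinases, Ccnd1 and the kinases moved in opposite directions. Ccnd1, cyclin D1, was 25.3 ± 7.41 RPKM in male and 77.0 ± 22.2 in female Het, a log2 difference of 1.57 (limma adjusted p = 0.000676). Cdk6, a partner of D-type cyclins, was 18.2 ± 7.52 in males and 5.25 ± 1.28 in females, a difference of -1.57 (adjusted p = 0.000651). Its paralogue Cdk4 was 151.7 ± 16.2 in males and 80.4 ± 29.0 in females (-0.96, adjusted p = 0.00327). Cdk2, the partner of cyclin E, was 43.4 ± 6.5 and 32.0 ± 3.83 (-0.42, adjusted p = 0.0272). No male Het library overlapped a female one for these 4 genes, which was a condition for naming them. Of the 6 listed genes, 4 passed (66.7%, against 31.9% of all genes). The Cdk2 call was lost without male Het1 replicate 2, male Het2 replicate 1, female Het1 replicate 2 or female Het2 replicate 1 (adjusted p = 0.061 to 0.0894).

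In the list of cyclin E and p27 turnover, 3 of 6 genes passed (50%, against 31.9% of all genes). Cks1b, a cofactor of the SCF ligase that marks p27 for destruction, was 71.1 ± 5.72 RPKM in male and 39.0 ± 6.46 in female Het (limma adjusted p = 0.000537). Cks2, a related small CDK-binding protein, was 58.0 ± 11.9 and 32.4 ± 12.1 (adjusted p = 0.0404). The ligase scaffold Cul1 went the other way, 75.7 ± 5.95 in males and 111.8 ± 16.5 in females (adjusted p = 0.00477). Of the other CDK inhibitors, 2 of 5 passed (40%), both higher in females. Cdkn2d, the p19 inhibitor of CDK4 and CDK6, was 0 to 2.11 RPKM in male and 2.58 to 6.67 in female Het, with adjusted p = 0.0254. Without female Het2 replicate 1, Cks2 went from -0.89 to -0.57 (adjusted p = 0.0869) and Cdkn2d from 1.22 to 0.97 (adjusted p = 0.07). The Cks2 call was also lost without male Het1 replicate 2, either male Het2 library or female Het1 replicate 1 (adjusted p = 0.0535 to 0.0948), and the Cdkn2d call without male Het2 replicate 2 (0.0662).

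**Figure D4:**
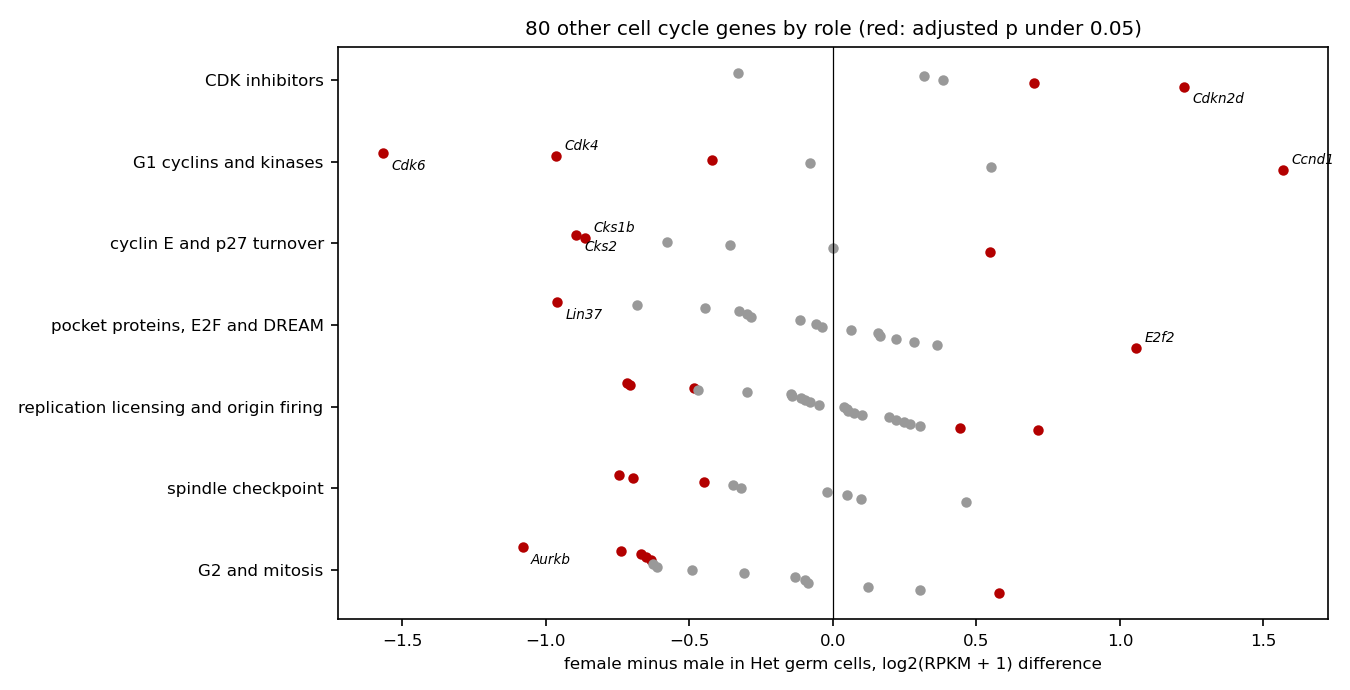
Female minus male log2(RPKM + 1) difference in Het germ cells for the 80 other cell cycle genes, 1 point a gene, in rows by role; red marks an adjusted p under 0.05. Ccnd1 (1.57) and Cdk6 (-1.57) lie at the ends of the axis, and 5 of the 6 red genes of G2 and mitosis lie below 0.

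Of all genes, 17.6% passed as higher and 14.3% as lower in females, and median centring reversed which of the 2 was more frequent. In the G2 and mitosis list 6 of 15 passed (40%, against 31.9% of all genes), 5 lower and 1 higher in females. Aurkb, the kinase of the chromosomal passenger complex, was 29.3 ± 3.91 RPKM in male and 14.1 ± 5.24 in female Het (limma adjusted p = 0.00674). Cdk1, the main mitotic kinase, was 34.8 ± 5.22 and 21.7 ± 4.51 (adjusted p = 0.0131), and Aurka 58.9 ± 5.06 and 38.4 ± 11.5 (adjusted p = 0.0179). The phosphatase gene Cdc25b was the exception, 6.07 ± 0.619 in males and 9.60 ± 1.57 in females (adjusted p = 0.016). Without both libraries that stand apart Cdc25b missed the threshold (0.46, adjusted p = 0.0587), and Aurka missed it without male Het2 replicate 1 (0.0545) or female Het1 replicate 2 (0.0527).

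In the list of other spindle checkpoint genes, 3 of 9 passed (33.3%, near the 31.9% of all genes), all lower in females. The other 6, like Bub1, did not pass. Bub1b, which encodes BubR1, was 85.5 ± 12.5 RPKM in male and 50.8 ± 9.32 in female Het, a log2 difference of -0.75 (limma adjusted p = 0.00222). Bub3, which recruits Bub1 and BubR1 to kinetochores, was 96.9 ± 14.3 and 60.7 ± 16.6, a difference of -0.70 (adjusted p = 0.0128). The corresponding difference for Bub1 was 0.18, and it was not tested against theirs.

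Replication licensing and origin firing genes, the setting of Cdc45, passed in 5 of 23 cases (21.7%, against 31.9% of all genes), 2 higher and 3 lower. Mcm2, a subunit of the helicase that Cdc45 joins, was 237.1 ± 45.2 RPKM in male and 146.1 ± 35.9 in female Het (limma adjusted p = 0.0105). Gins4 was lower in females (56.5 ± 10.3 and 33.8 ± 4.87, adjusted p = 0.00574) and Gins3 higher (5.23 ± 0.648 and 9.70 ± 4.23, adjusted p = 0.0287), although both encode subunits of the GINS complex. Orc1, of the origin recognition complex, was 17.3 ± 2.55 and 23.8 ± 1.85 (adjusted p = 0.0256). Without both libraries that stand apart neither Gins3 (from 0.71 to 0.41, adjusted p = 0.08) nor Orc1 (from 0.44 to 0.36, adjusted p = 0.0881) passed. Both calls were also lost without male Het1 replicate 1, either male Het2 library or female Het1 replicate 2 (adjusted p = 0.0533 to 0.0692), and Gins3 was 0.47 without female Het2 replicate 1. Of the 16 genes of pocket proteins, E2F and the DREAM complex, 2 passed (12.5%). E2f2 was 3.02 ± 0.760 in males and 7.27 ± 0.813 in females (adjusted p = 0.000695), and the DREAM subunit gene Lin37 was 12.8 ± 2.14 and 6.06 ± 0.504 (adjusted p = 0.00096). All 25 genes that passed in Het had the same sign in KO, and 11 of them passed there. Over all 4312 genes that passed in Het, 98.1% had the same sign in KO and 1767 passed there the same way.

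Without Setdb1, none of the 80 listed genes passed the limma test in males or in females. At an unadjusted p under 0.05, 1 was higher in males, and 2 were higher and 6 lower in females, where 4.55% of all genes in males and 12.4% in females did so. The lowest adjusted p was 0.827 for Mad2l1 in males and 0.264 for Ccnd2 in females. Without the 2 libraries that stand apart, 5 of the 80 passed in females, where 4.32% of all genes did, and without female Het2 replicate 1 alone 1 passed (Ccnb2, adjusted p = 0.0457), where 1.23% did. These 5, named after their values were seen, were Cdkn2a (1.24), which encodes p16 and p19Arf, and Tfdp1 (-0.56), Ccna2 (-0.73), Ccnb1 (-0.93) and Ccnb2 (-0.62), on the log2 scale.

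Against soma, germ cells of C57BL/6 males were compared by size alone, with 1 library each and no test. Of the 8 genes, 5 were at least 2-fold higher in germ cells on the log2(RPKM + 1) scale and 1 lower, where 17.6% of 13457 genes were higher and 28.7% lower. Bub1 was 92.9 RPKM in germ cells and 18.9 in soma, Cdc45 55.3 and 17.2, Ccne1 26.8 and 8.62, and Rb1 28.3 and 9.32. Cdkn2b was 4.48 against 0.33. Cdkn1b was 6.49 in germ cells and 16.04 in soma, the only one of the 8 past 2-fold in that direction. Ccnd3, at 72.5 and 130.2, and Ccne2, at 9.26 and 9.10, were not past 2-fold. The listed replication genes were higher in germ cells in 13 of 23 cases and lower in none.

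The genes whose RNA followed each member most closely over the 12 libraries are given as a description. The libraries fall into 2 sexes, so a shared difference between the sexes raises these Pearson correlations of log2(RPKM + 1). A single library that stands apart can raise them too. Each pair of genes was picked as the 2 highest r among all other tested genes. Cdkn1b was closest to Fmn1 (r = 0.957, n = 12) and Taf7 (r = 0.949). For Ccne1 these were Psat1 (r = 0.952) and Lmo7 (r = 0.949), and for Ccne2 they were Bod1l (r = 0.986) and Arhgap5 (r = 0.983). Bub1 was closest to Brd7 (r = 0.944) and Hells (r = 0.921), Rb1 to 4930547N16Rik (r = 0.956) and Pias1 (r = 0.894), and Ccnd3 to Amt (r = 0.935) and Cep164 (r = 0.929). The lowest values were those of Cdc45, with 3110001I22Rik (r = 0.868) and Kars (r = 0.863), and Cdkn2b, with Atp6v1c2 (r = 0.852) and Kctd21 (r = 0.845).

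At the promoters, H3K27me3, the mark laid down by Polycomb complexes, was highest at the inhibitor genes. Within 1 kb of the start, Cdkn1b had a ChIP RPKM of 0.88 in male Het, 0.635 in male KO, 0.602 in female Het and 0.475 in female KO, where the medians over all promoters were 0.249 to 0.296. Cdkn2b had 0.521, 0.615, 0.726 and 0.802 in the same order. The other 6 genes lay between 0 and 0.234 in every library, below all the values of both inhibitor genes. Cdkn1b was thus higher in male libraries and Cdkn2b in female ones, in both genotypes, from 1 library each and with no test. The female minus male log2 values in Het and KO were -0.481 and -0.354 for Cdkn1b, and 0.412 and 0.335 for Cdkn2b. Whole libraries differed too. Over all promoters the 90th percentile was higher in males (1.094 against 0.923 in Het, 1.068 against 0.772 in KO). The median was higher in females (0.296 against 0.254 in Het, 0.269 against 0.249 in KO). The share of promoters with 1 sign in both genotypes was not computed.

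H3K9me3, the mark made by Setdb1, was below RPKM 1 at all 8 promoters in germ cells. There it ran from 0 to 0.384 RPKM, with the highest values at Cdkn2b (0.215 and 0.326 in male Het and KO, 0.278 and 0.384 in female Het and KO). The soma library had 1.15 at Cdkn1b, at or above 91.5% of promoters, and 0.478 to 0.841 at the other 7. No promoter of the 8 reached RPKM 1 in germ cells for either mark, so none could be called by the rule of a 2-fold difference in the same direction in both pairs. Among promoters past that floor, 7.14% were called lower and 0.42% higher in KO for H3K9me3, and 0.0556% lower and 0% higher for H3K27me3. In the female against male comparison these shares were 2.29% higher and 1.38% lower for H3K9me3, and 0.134% and 0.0894% for H3K27me3. Median centring changed these splits: in KO minus Het, H3K9me3 went from 1 higher and 17 lower to 2 and 8. In female minus male, H3K27me3 went from 3 higher and 2 lower to 13 and 0, and H3K9me3 from 5 and 3 to 8 and 2.

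**Figure D5:**
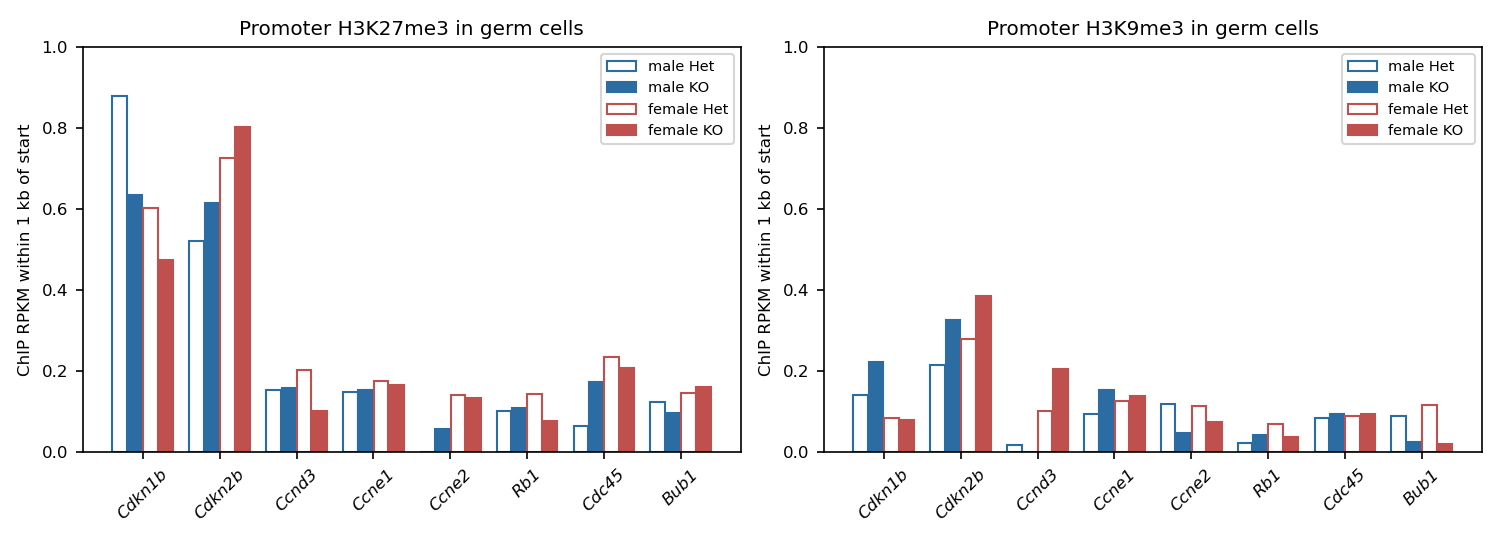
ChIP RPKM within 1 kb of the transcription start of the 8 genes, for H3K27me3 (left) and H3K9me3 (right), 1 library per bar, Het open and KO filled. Cdkn1b (0.88 in male Het) and Cdkn2b (0.802 in female KO) carry the most H3K27me3, and no bar reaches 1.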

How the data were processed

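RNA and promoter values are RPKM, made by the authors per the file headers and not rescaled here. The submitters' processing notes name BWA, SAMtools and the mouse build mm9. How reads were counted, whether strand was used and the library totals were not given in the sources used, so overlapping genes cannot be told apart. The promoter table covers 1 kb either side of the Ensembl start. PBAT libraries and the total H3 library are not analysed here.

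One fit of 4 group means (male and female Het, n = 4 each; male and female KO, n = 2 each) was made in R 4.3.3 with limma 3.58.1 (lmFit, eBayes with trend, two-sided) on log2(RPKM + 1) for 13518 genes with RPKM 1 or more in at least 2 of 12 libraries. P-values were Benjamini-Hochberg adjusted over all of them, with a threshold of 0.05. WT stayed outside the fit. The fit was tested on simulated data. ChIP comparisons used a pseudocount of 0.1 and an RPKM floor of 1 in each of 2 pairs. Alternatives were another pseudocount, no filter, median centring, quantile normalization, other control sets, a replicate block and leaving out each library. The named listed genes were up to 3 per list and direction with the largest difference among those that passed without overlap between the sexes. Members and lists were chosen with earlier results of these data known.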

Additional observations from a re-analysis of the deposited data

Results flagged for a closer look

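In the 16 groups of 4 libraries examined (8 genes in male and in female Het), male Het1 replicate 1 stood apart from the other 3 male Het libraries for 3 genes. Its Cdkn1b level was the highest, 15.4 RPKM, with a gap to the next library of 0.851 of the group's range. Its Ccne1 level was the lowest, 10.58 RPKM, with a gap of 0.886 of the range. Its Bub1 level was also the lowest, 78.07 RPKM, with a gap of 0.844. Each gap was beyond Dixon's 95% critical value for 4 libraries, and chance alone marks about 1 in 20 groups. Since all 3 marks fall on the same library, they are not independent. Nanos2 in that library was 57.6 RPKM, the 4 male fate genes summed to 146.3 and the Sertoli markers summed to 62.4. Their part in these values was not tested.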

How the results depend on the processing

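Leaving out both libraries that stand apart (male Het1 replicate 1 and female Het2 replicate 1) was chosen after seeing the data; the cause of the changes below was not tested. In female minus male Het, the count of the 8 genes called (2) was 0 with no filter, with Het1 libraries only and with Het2 libraries only, and 1 with both left out, and ran from 0 to 3 over single libraries left out. Genes called (4312) were 1150 and 1448, and listed cell cycle genes called (25) were 5 and 10, with Het1 only and Het2 only. The difference changed sign for Cdkn2b with Het2 only (0.0524), for Ccnd3 with quantile normalization (0.0839) and Het1 only (0.218), and for Cdc45 with Het1 only (0.0945); for Ccnd3 it ran from -0.178 to 0.114 over single libraries left out.

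In female minus male KO, both left out gave 3893 genes (2181), 2 of the 8 genes (0) and 27 listed genes (13), and listed genes were 7 with no filter and 7 with Het2 only. Ccnd3 was -0.149 with median centring and Bub1 0.116 with quantile normalization. Over single libraries left out, genes called ran from 437 to 3072, members called from 0 to 1, listed genes from 2 to 20, Ccnd3 from -0.114 to 0.13, Rb1 from -0.427 to 0.0617 and Bub1 from -0.247 to 0.15. Scaling moved the split of calls: in Het, 2373 genes higher and 1939 lower in females became 1955 and 2407 with median centring and 1925 and 1963 with quantile normalization, and in KO 1313 and 868 became 829 and 1425, or 940 and 1032. Median centring moved the median of all genes from 0.0916 to -0.0656 in this comparison and from 0.0718 to -0.0699 in KO minus Het females.

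In KO minus Het males, genes called (83) were 185 with no filter, 36 with Het1 only and 39 with Het2 only. With Het1 only, Cdkn1b was -0.0419, Ccne1 0.22 and Cdc45 0.0713. Cdkn2b was 0.257 with Het2 only, 0.0576 with WT added and 0.0249 with both left out, where Ccne2 was -0.0588. Over single libraries left out, Cdkn2b ran from -0.512 to 0.324, Ccne1 from -0.361 to 0.0498, Ccne2 from -0.271 to 0.573, Rb1 from -0.35 to 0.138, Bub1 from -0.307 to 0.0901 and Cdc45 from -0.293 to 0.0402. No member passed in either sex's KO minus Het test under any of these settings.

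In KO minus Het females, genes called (55) were 30 with pseudocount 0.1, 140 with no filter, 23 with median centring, 12 with quantile normalization, 8 with Het1 only, 2 with Het2 only and 584 with both left out, and 7 to 166 over single libraries left out. Listed genes called (0) were 5 with both left out and 0 to 1 over single libraries left out. For the difference of the KO effects (7 genes) the counts were 0, 64, 13 and 13 in the first 4 of these settings, 1 with Het1 only, 1 with Het2 only, 13 with WT added and 11 with both left out, and 4 to 13 over single libraries left out.

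Replicate numbers were shared between groups, but the 15 correlations of same-numbered deviations ran from -0.0401, with the next at 0.153, to 0.565. Since 1 pair fell short of 0.1, the numbers were not taken to pair the libraries. With the replicate block, Ccne2 passed in female minus male Het (0.99, limma adjusted p = 0.0415), and listed genes called in KO were 20. Genes called under the block were 91 for KO minus Het females and 11 for the difference of effects. Promoters called were 7 (1) for H3K27me3 and 56 (18) for H3K9me3 in KO minus Het, and 166 (5) and 83 (8) in female minus male, at a floor of RPKM 0.5. With pseudocount 1 they were 0, 1, 0 and 1, and with median centring 1, 10, 13 and 10, in the same order. The counts of 0 promoter calls and of 6 genes past 2-fold against soma among the 8 did not change under the alternatives run for them. The depth of the libraries is unknown, and the 2 KO libraries per sex limit every KO comparison.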
